A study of Mus musculus with 15 samples.

Results

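Hmgb and Hmgn are 2 families of abundant, non-histone chromatin proteins, and their transcripts were followed here in mouse embryonic stem cells (ESC) that had or lacked Hmga1, a protein of the same broad class. The members were the genes whose symbol was Hmgb1, Hmgb2, Hmgb3, Hmgn1, Hmgn2, Hmgn3 or Hmgn5 in both deposited tables, 7 of 21662 genes, and all 7 passed the filter on low counts in both experiments. Hmgb proteins carry a pair of HMG boxes, folds that enter the minor groove and bend DNA, followed by an acidic tail, and Hmgb1 also acts as an alarm signal once it leaves a cell. Hmgn proteins bind directly to the nucleosome core particle, where they compete with linker histone H1. Hmga proteins instead use AT-hooks, short motifs that hold AT-rich DNA.

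Total RNA from 15 ESC samples in 6 groups was depleted of ribosomal RNA and sequenced with its strand kept. In the KO experiment the groups were the parental wild-type line (WT, samples a, b and c), Hmga1 KO (a and b), in which a frame-shift mutation made with Cas9 at an exon border of Hmga1 had removed the splice donor of exon 3, and the Hmga1 and Hmga2 add-backs (a and b each), made from the KO line. In an add-back, a biotin-tagged cDNA driven by the ubiquitous CAG promoter had been placed at a defined locus by Cre recombination. The full-deletion experiment had its own WT samples (a, b and c) and a line that lacked the coding sequence of Hmga1 (a, b and c). For that line, guides in the 5′ and 3′ untranslated regions had been added to the approach used for the KO. The parental line, of mixed 129Sv-C57Bl/6 origin, expresses the biotin ligase BirA, and its derivatives carry it too. Each mutant or add-back line was a single clone, so that a difference between clones and an effect of the genotype cannot be told apart. Samples came from separate cultures harvested on different days, and the letters of the KO experiment stand for batches of library preparation and flow cell.

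How far the counts of these genes can be read depends on their sequences, because the authors aligned reads of 50 bases, less 3 trimmed, to the genome without splicing and kept 1 random placement of a read that matched several. Hmgb1 (chromosome 5, 149858278 to 149865089, minus strand, NCBIM37 or mm9) has many processed copies, intronless reverse-transcribed duplicates, and exact matches to its transcript lay in 168 other regions of the genome, 77 of them with at least 100 matching stretches of 47 bases. The other genes lie at chr8:59990640-59994796 (Hmgb2), chrX:68809093-68813851 (Hmgb3), chr16:96342225-96349336 (Hmgn1), chr4:133520653-133524565 (Hmgn2), chr9:83003555-83040292 (Hmgn3) and chrX:106199873-106208743 (Hmgn5) of the same build. The 2 windows that follow, chosen for the contrast between them, show what copies do at a coding exon junction. They are 30 bases long, are taken from the NCBIM37 reference and run 5′ to 3′ on the gene's strand, with the last 15 bases of one exon in lower case and the first 15 of the next in capitals.
Hmgb1, exons 3 and 4: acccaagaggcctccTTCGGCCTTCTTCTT
Hmgn3, exons 2 and 3: ctaactaagcaggagCCCACAAGACGGTCG
At the Hmgb1 junction (lower case, chr5:149861871-149861885, capitals, chr5:149861463-149861477), all 46 stretches of 47 bases that cross it occurred as an unbroken run somewhere in the genome, in 56 regions, and 0 of them at Hmgb1 itself. For Hmgn3 (chr9:83013980-83013994 and chr9:83008395-83008409) 0 of 46 were found anywhere. An unspliced alignment could thus place exact reads over the Hmgb1 junction only at copies, and those over the Hmgn3 junction nowhere.

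Over whole transcripts the members ranged from no shared stretch to nearly all shared. Of the 47-base stretches of Hmgn2, 89.7% occurred outside the gene, 72.8% at the gene and elsewhere and 16.9% only elsewhere. The share that occurred elsewhere was 77.0% for Hmgb3, 73.4% for Hmgb1, 34.8% for Hmgb2, 30.5% for Hmgn1, 27.0% for Hmgn5 and 0% for Hmgn3. If exact reads were spread evenly over a transcript and over all matches, 24.6% of those with a match would be placed at Hmgn2, 39.7% at Hmgb1, 49.3% at Hmgb3, 71.5% at Hmgb2, 78.3% at Hmgn1, 82.1% at Hmgn5 and 100% at Hmgn3. Levels of Hmgn2, Hmgb1 and Hmgb3 are therefore uncertain, and part of what is counted for them can come from transcribed copies.

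**Figure D1:**
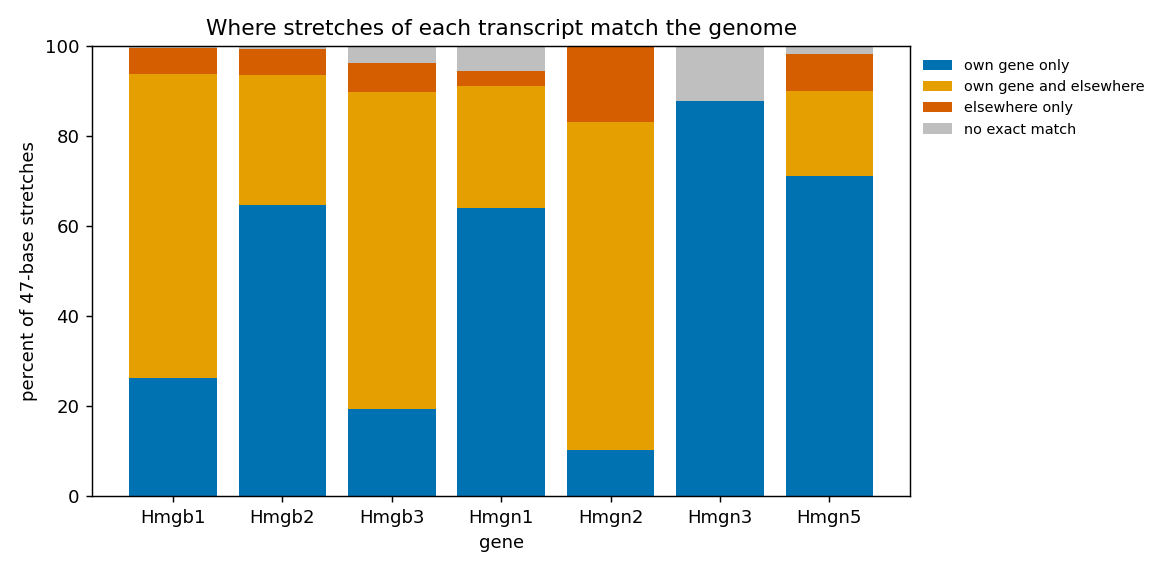
Percent of the 47-base stretches of each member's transcript (vertical axis) that match the genome at the gene only, at the gene and elsewhere, only elsewhere, or not at all. Hmgn3 has no match elsewhere, while 89.7% of Hmgn2 stretches have one.

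The deposited values are counts of reads per gene, which summed to between 13465399 and 34952136 per sample in the KO experiment and between 14832310 and 21708492 in the full-deletion experiment. They are given below as CPM, counts scaled to library size with the TMM factors of edgeR. All 10 pluripotency genes examined, among them Pou5f1 and Nanog, exceeded 1 CPM in every sample, with summed levels of 4440 to 8025 CPM, the highest in WT b of the full-deletion experiment, whereas 10 genes of feeder fibroblasts summed to 4.72 to 18.7 CPM, with Dcn and Postn at 0 in all groups but WT of the KO experiment (group means of 0.0553 and 0.0211 CPM there). Most of the feeder sum came from Thy1 (group means of 3.41 to 9.97 CPM), Pdgfrb (0.910 to 3.80) and Acta2 (1.15 to 2.55). In each sample 2 or 3 of the 10 feeder genes exceeded 1 CPM. Hmga1 fell to 10.9, 12.3 and 12.1 CPM in the full deletion from 310 to 357 CPM in its WT. In Hmga1 KO it had 217 and 96.1 CPM, in the add-back labelled Hmga1 184 and 123, and in WT 221 to 464, so the add-back label was not visible in the counts of Hmga1 over the whole gene (log2 difference to KO 0.04, SE 0.17, adjusted p = 1 with edgeR). By Western blot, a measure of protein, the study found Hmga1 in this add-back at about the WT level. It also reports that the KO locus still gave an alternative Hmga1 transcript that lacked exon 3. The samples labelled Hmga2 add-back had 249 and 222 CPM of Hmga2 against 12.8 to 23.8 in WT.

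A single library stood apart. WT b of the full-deletion experiment had a TMM factor of 0.752 and 8.78% of its counts in its 10 leading genes (4.67 to 5.38% in the others). The factors of the others split by line, with 0.992 and 0.986 in WT a and c and 1.10 to 1.12 in the full deletion. Among the 6 samples of that experiment it was the highest for 6 of 7 members and the lowest for Hmgn2, while over all 13098 genes tested it was the highest for 35.1% and the lowest for 39.8%. Its level over the mean of WT a and c was 4.14-fold for Hmgn5, 2.53-fold for Hmgb2, 2.33-fold for Hmgb3, 1.79-fold for Hmgn3, 1.72-fold for Hmgn1, 1.28-fold for Hmgb1 and 0.814-fold for Hmgn2. Results of the full deletion are given with and without it. WT c of the KO experiment was the only sample of its batch, so it carries no weight in comparisons between lines there. It was the highest of the 9 samples for 5 members (20.7% of all genes), with 129 CPM of Hmgb1, 703 of Hmgb2, 46.1 of Hmgb3, 438 of Hmgn1 and 57.6 of Hmgn5.

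Per kilobase of exon, the members spanned more than 2 orders of magnitude in ESC, and Hmgn1 and Hmgb2 led. In WT of the KO experiment, the mean RPKM (the same scaled counts per kilobase of exon) was 293 ± 89.2 for Hmgn1 (SD, n = 3), a regulator of chromatin accessibility, and 198 ± 59.9 for Hmgb2 (SD, n = 3), the Hmgb protein typical of dividing cells. These ranked 185 and 334 among the 20640 genes above 0. Hmgb1, the most widely expressed family member, followed with 37.2 ± 6.66 RPKM (SD, n = 3). Hmgn5, a large Hmgn protein with an acidic tail, and Hmgb3, known from blood stem cells, both had 20.3 RPKM (SD 9.99 and 5.93, n = 3), and Hmgn2 had 15.3 ± 1.72 (SD, n = 3). Hmgn3 was lowest with 0.884 ± 0.268 RPKM (SD, n = 3), from 22 to 31 reads a sample in WT and 18 to 56 over all 15 samples.

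The order at the top and the bottom held almost throughout. Hmgn1 exceeded Hmgb2 in 14 of 15 samples, the exception being WT b of the full-deletion experiment. That order rests on the exon lengths used, 1200 bases for Hmgn1 and 2692 for Hmgb2. The GENCODE transcript of Hmgn1 has 2174 bases, and before division by length Hmgb2 was the higher (533 against 351 CPM in WT of the KO experiment). Hmgn1 and Hmgb2 both exceeded every other member in 15 of 15, and Hmgn3 was below every other member in 15 of 15. Hmgb1 was above Hmgn5 in 13 and above Hmgb3 in 14 samples. The next 3 did not separate. Hmgn5 exceeded Hmgb3 in 12 samples and Hmgn2 in 11, and Hmgb3 exceeded Hmgn2 in 12. Within the Hmgb family, Hmgb2 made up 74.6 to 89.4% of summed RPKM, and Hmgn1 made up 84.2 to 92.2% of the Hmgn sum. The low place of Hmgn2 and Hmgb3 rests on counts of transcripts that share most of their stretches with other regions. The share of Hmgb2 in its family has the same limit, since 73.4% of Hmgb1 stretches also occurred elsewhere. The copy Hmgb1-ps7, left out of that sum, had a mean of 102 RPKM in WT of the KO experiment, against 37.2 for Hmgb1.

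**Figure D2:**
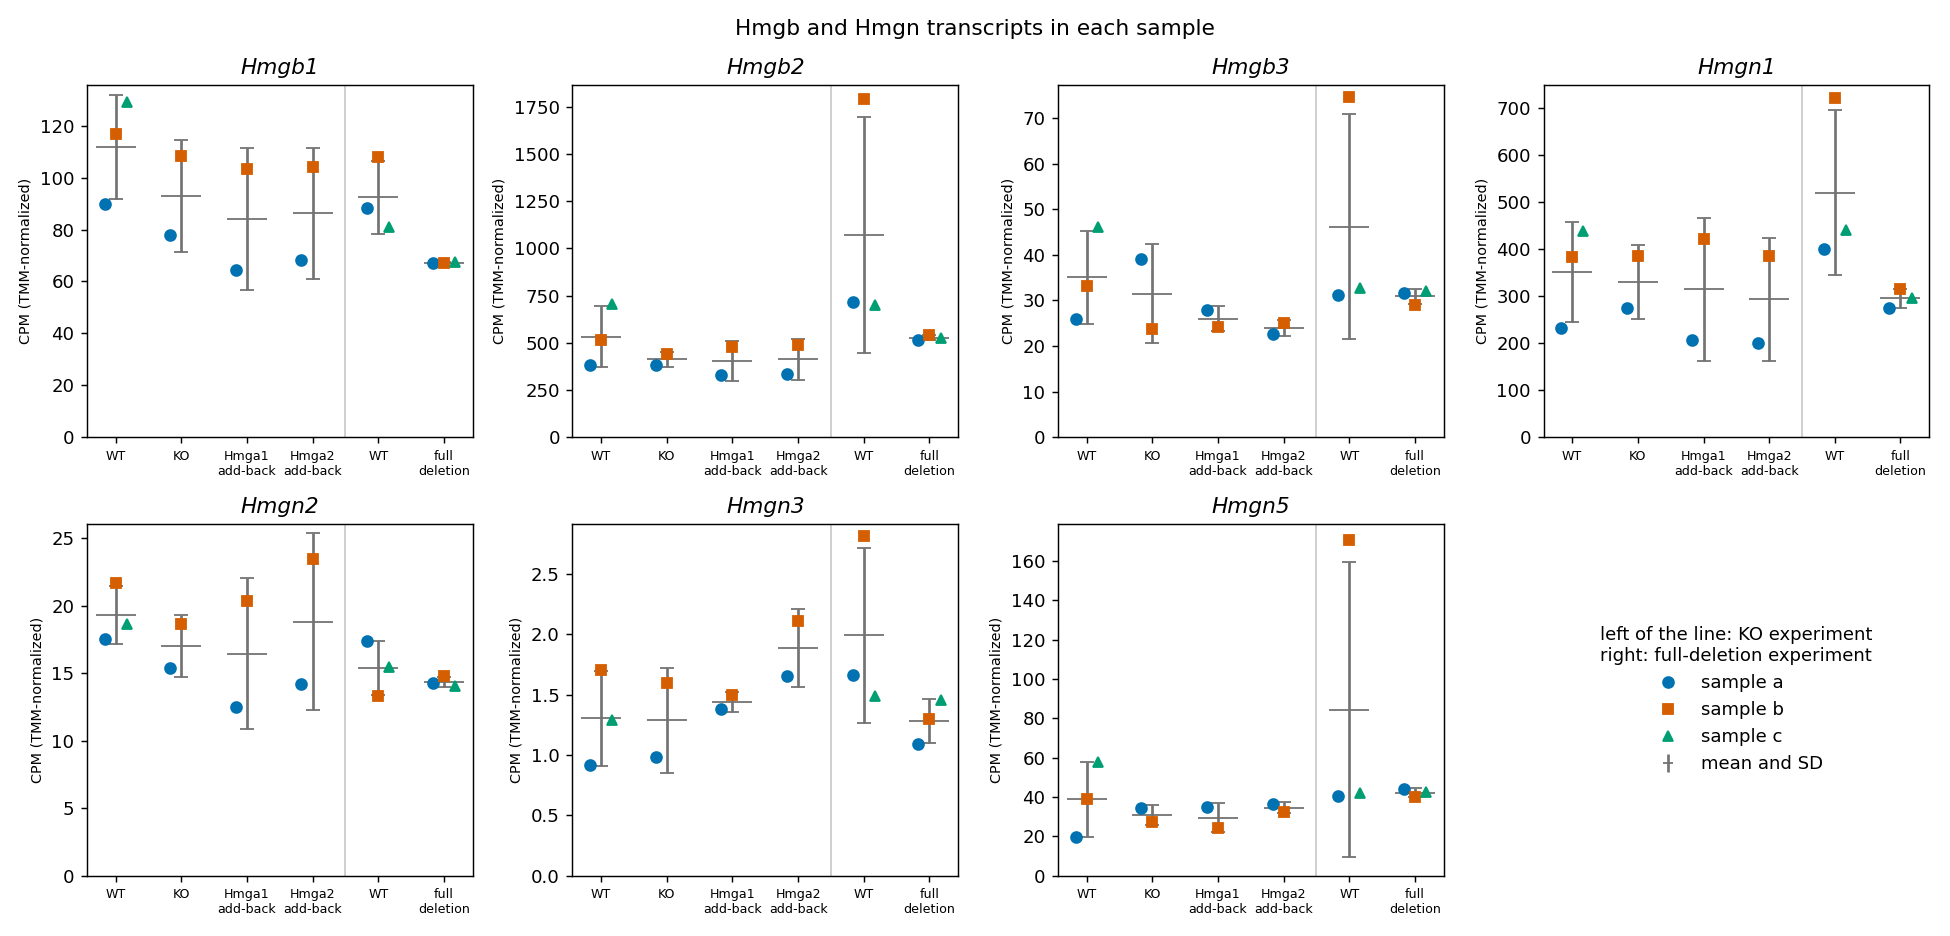
TMM-normalized CPM (vertical axis, from 0) of the 7 members in each of the 15 samples, by group, with the mean and SD. Sample b lies above sample a in each line of the KO experiment for Hmgb1, Hmgb2, Hmgn1, Hmgn2 and Hmgn3, and WT b of the full-deletion experiment is the highest sample of its experiment for 6 genes.

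The clearest difference in the KO experiment was between batches. Hmgb1, Hmgb2, Hmgn1 and Hmgn2 were higher in batch b than in batch a, and passed at an adjusted p under 0.05, so 4 of 7 members were called higher, where 18.6% of all 13912 genes were called higher (35.6% in either direction). Hmgn1 had 232 CPM in WT a and 384 in WT b, 275 and 386 in KO a and b, 206 and 422 in the Hmga1 add-back, and 201 and 385 in the Hmga2 add-back. All 4 samples of batch b were above all 4 of batch a, with a log2 difference of 0.80 (SE 0.10, adjusted p = 0.00167 with edgeR's quasi-likelihood test). Hmgb1 went from 89.9 to 117 CPM in WT, 77.8 to 108 in KO, 64.5 to 103 in the Hmga1 add-back and 68.3 to 104 in the Hmga2 add-back. Again batch b lay above batch a throughout (log2 difference 0.53, SE 0.08, adjusted p = 0.00298 with edgeR). Hmgb2 ranged from 328 to 384 CPM in the samples a and from 440 to 512 in the samples b (log2 difference 0.42, SE 0.09, adjusted p = 0.00761 with edgeR). Hmgn2 ranged from 12.5 to 17.6 CPM and from 18.6 to 23.4, again without overlap (log2 difference 0.50, SE 0.12, adjusted p = 0.0155 with edgeR). That call was lost when any of the 4 add-back samples was left out, with an adjusted p between 0.0656 and 0.0854.

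Of the other members, Hmgn3 had a difference as large as that of Hmgn2 with a wider error, and Hmgb3 and Hmgn5 were not higher in b throughout. Hmgn3 was higher in b in all 4 lines, with ranges that overlapped (0.917 to 1.66 CPM in a and up to 2.11 in b, log2 difference 0.50, SE 0.25, adjusted p = 0.152 with edgeR). Hmgb3 was higher in b in 2 of 4 lines (log2 difference -0.10, SE 0.17, adjusted p = 0.65 with edgeR) and Hmgn5 in 1 of 4 (-0.01, SE 0.23, adjusted p = 0.98 with edgeR). Hmgn5 differed most among lines, since it rose from 19.5 to 39.2 CPM between the WT samples and stood at 34.3 and 27.2 in KO, 34.8 and 24.2 in the Hmga1 add-back, and 36.5 and 32.6 in the Hmga2 add-back. Without WT a, and without WT b, Hmgn5 passed as lower in b (log2 difference -0.33 and -0.34, adjusted p = 0.0379 and 0.0351 with edgeR). These fits called 5836 of 13874 and 5847 of 14011 genes in either direction, 2814 and 2890 of them lower. In all, b exceeded a in every line for 5 of 7 members and for 25.7% of all genes. Batch a also had the deeper libraries, 30742898 to 34952136 counts against 13465399 to 14585417, and Hmga1 itself differed between batches (log2 difference -0.74, SE 0.12, adjusted p = 0.0034 with edgeR). The part of either in the members' difference was not tested.

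**Figure D3:**
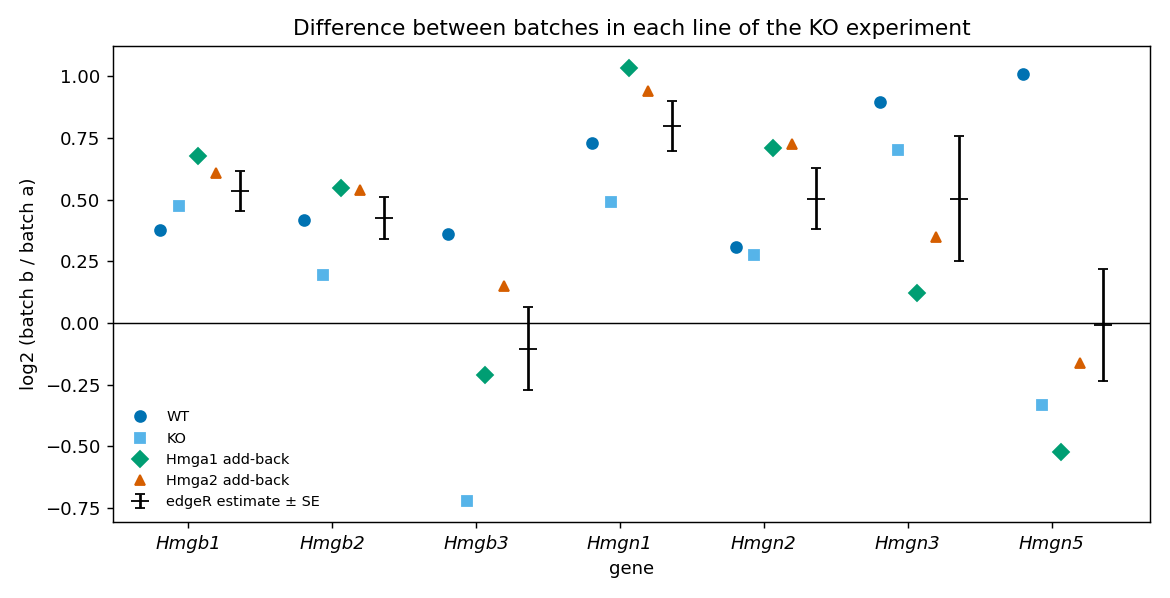
Log2 ratio of batch b to batch a for each member in each of the 4 lines of the KO experiment (points), with edgeR's estimate and standard error over all lines (black). The ratios of Hmgb1, Hmgb2, Hmgn1, Hmgn2 and Hmgn3 are above 0 in every line, and those of Hmgb3 and Hmgn5 lie on both sides.

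No member passed in Hmga1 KO against WT, where 0.0647% of all genes did. With batch as a term, the log2 fold change lay between -0.20 (Hmgn2) and 0.13 (Hmgn1), the median over members was -0.00 and over all genes -0.01, and 0 members had an unadjusted p under 0.05 (1747 of 13912 genes did). Pooled over batches, the samples of both groups overlapped for each member. Within batches a and b, Hmgb1 (log2 -0.21 and -0.11) and Hmgn2 (-0.19 and -0.22) were lower in KO in both. Hmgn1 was higher in both (0.25 and 0.0050), and the other members went both ways. For Hmgb1 the fold change was 0.893 (log2 -0.16, 95% interval -0.39 to 0.06, adjusted p = 0.588 with edgeR), for Hmgb2 0.932 (log2 -0.10, interval -0.34 to 0.13, adjusted p = 0.772 with edgeR) and for Hmgn1 1.10 (log2 0.13, interval -0.14 to 0.41, adjusted p = 0.739 with edgeR). The precision was lower for Hmgn5 (interval -0.53 to 0.72). For Hmgn3, the gene with the fewest reads, the interval was -0.98 to 0.98. That width is uncertain, because the SE was derived from a fold change and a test statistic that were both very small. In the other comparisons between single lines of this experiment, the SE of Hmgn3 was 0.35 to 0.36. Hmga1 itself had a log2 fold change of -1.29 here (SE 0.17, adjusted p = 0.0534 with edgeR), so it missed the threshold too.

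For Hmgb3 and Hmgn5 the batches moved opposite ways. Hmgb3 was 0.60 higher in KO than in WT on the log2 scale in batch a, with 39.2 against 25.9 CPM, and -0.48 in batch b, with 23.8 against 33.2. For Hmgn5 these differences were 0.81 and -0.53, and WT a had the lowest Hmgn5 of all 9 samples. Without WT b, so with WT compared in batch a alone, Hmgn5 passed as higher in KO (log2 fold change 0.82, adjusted p = 0.0377 with edgeR), in the Hmga1 add-back (0.75, adjusted p = 0.0424) and in the Hmga2 add-back (0.99, adjusted p = 0.0185), where 2.85%, 3.22% and 5.15% of all genes passed as higher. Without WT a it was -0.52, -0.59 and -0.34.

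The add-back lines, which share the WT or KO samples with the preceding comparison, gave no call among the members either. Against WT, 0 of 7 passed in the Hmga1 add-back and 0 of 7 in the Hmga2 add-back (0.0431% and 0.165% of all genes). Against Hmga1 KO, 0 passed in each (0% and 0.0144% of all genes, and 390 and 708 genes at an unadjusted p under 0.05, with no member among them). Hmgb1 was the nearest to a change. It had a log2 fold change against WT of -0.33 in the Hmga1 add-back (SE 0.12, adjusted p = 0.312 with edgeR) and -0.28 in the Hmga2 add-back (SE 0.11, adjusted p = 0.268). With the 3 KO-derived lines pooled it was -0.26 (SE 0.09, unadjusted p = 0.0222, adjusted p = 0.193 with edgeR), with no member called and 0.748% of all genes called. Hmgn5 was again called only without WT b (0.85, adjusted p = 0.017 with edgeR, where 5.84% of all genes passed as higher). Within batches Hmgb1 was lower than in WT in each of the 3 lines, by -0.21, -0.48 and -0.40 in batch a and -0.11, -0.18 and -0.17 in batch b for KO, Hmga1 add-back and Hmga2 add-back. When the counts of its copies Hmgb1-ps7 and Hmgb1-rs17 were added, a choice made after seeing the data, no member passed in these comparisons either, and Hmgb1 with its copies had -0.14 in the KO-derived lines. A list of 10 differentiation genes, among them Gata4 and Sox1, summed to 79.3 to 114 CPM in WT and 49.4 to 64.3 in the KO-derived lines, with 8 of 10 above 1 CPM in each WT sample and 5 to 8 in the others. Only Eomes of the list had higher means in KO, the Hmga1 and the Hmga2 add-back (3.13, 4.10 and 4.97 CPM) than in WT (2.87). In WT of the full-deletion experiment the list summed to 48.6 to 74.8 CPM. The part of this list in the members' differences was not tested.

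**Figure D4:**
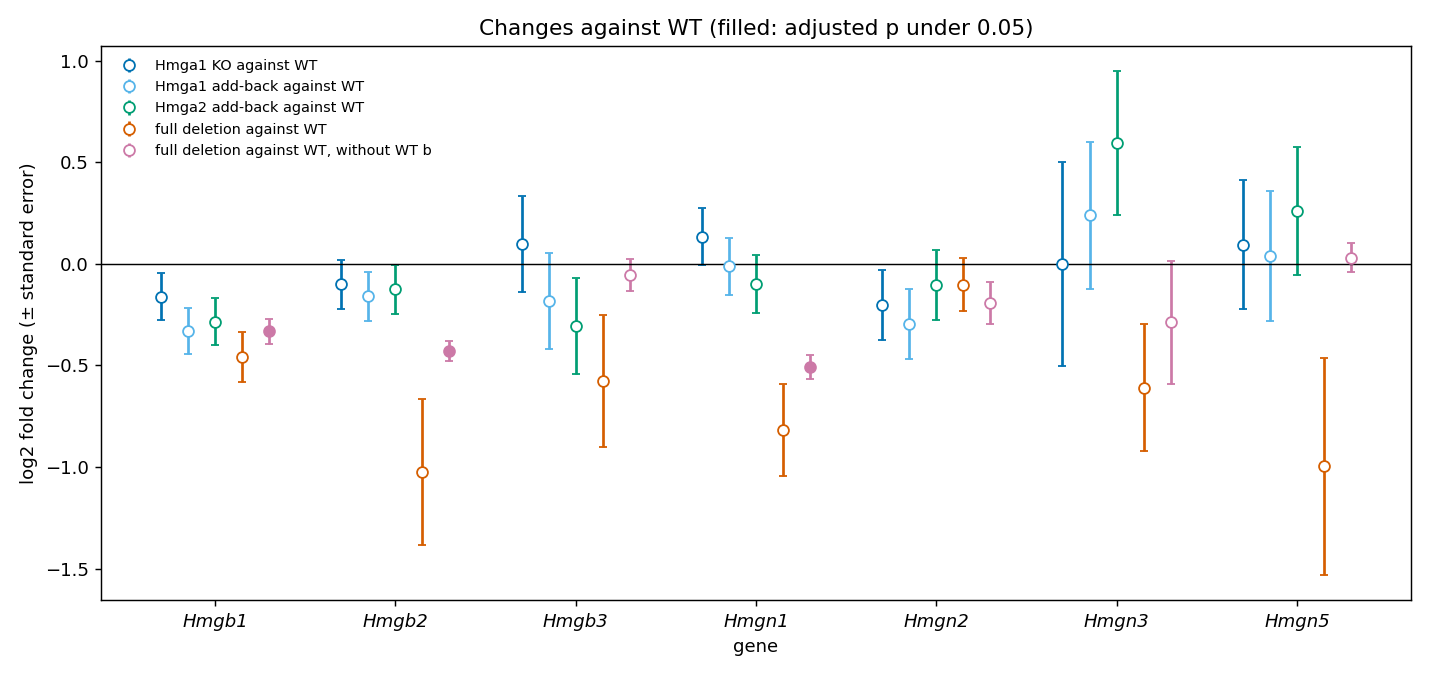
Log2 fold change against WT (vertical axis, with standard error) of each member in Hmga1 KO, both add-backs and the full deletion, the last also without WT b. Filled points have an adjusted p under 0.05 (edgeR), which only Hmgb1, Hmgb2 and Hmgn1 reached, in the full deletion without WT b.

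The full deletion of Hmga1 gave lower values for every member, but none passed with all samples in the fit. The log2 fold changes against WT ran from -0.10 (Hmgn2) to -1.02 (Hmgb2) with a median of -0.61, against 0.04 over all genes, and 0 of 7 members passed where 8.25% of all genes did. In WT a, b and c, Hmgb2 stood at 714, 1792 and 702 CPM, and the full-deletion samples had 514, 540.1 and 524. The groups did not overlap, and the WT spread was carried by sample b (log2 fold change -1.02, SE 0.36, adjusted p = 0.0906 with edgeR). Hmgn1 had 399.8, 722 and 440.4 CPM in WT and 274, 316 and 297 in the full deletion, again without overlap (-0.82, SE 0.23, adjusted p = 0.0595 with edgeR, and -0.98, adjusted p = 0.0464, without WT a). Without WT a 1233 of 13116 genes were called, 701 of them lower. Hmgb1 had 88.3, 108 and 80.8 CPM in WT and 67.0, 67.1 and 67.4 in the full deletion (-0.46, SE 0.12, adjusted p = 0.0579 with edgeR), and these did not overlap either. Nor did those of Hmgn3, with 1.66, 2.82 and 1.49 CPM against 1.09, 1.30 and 1.45, values that rest on 31 to 46 and 18 to 32 reads (-0.61, SE 0.31, adjusted p = 0.191 with edgeR). Lower values without overlap were thus found for 4 of 7 members and for 24.6% of all genes. Summed levels of marker lists differed between the same groups. The feeder list summed to 9.74 to 10.5 CPM in the full deletion and 4.72 to 7.69 in WT, with 5 to 6 of 10 genes at 0 in each sample and Dcn, Postn, Col3a1 and Fap at 0 in all 6, and the pluripotency list to 4440 to 4572 against 5008 to 8025 CPM. The 8025 CPM was that of WT b, with 5146 and 5008 in WT a and c. Within the lists some genes went the other way. The group means of Nanog, Dppa5a and Utf1 were higher in the full deletion (98.3, 138 and 119 CPM) than in WT (72.1, 92.0 and 92.4). Those of the other pluripotency genes were lower. In the feeder list, the means of Thy1, Pdgfrb and Acta2 were higher in the full deletion (4.67, 2.30 and 2.55 CPM) than in WT (3.41, 0.910 and 1.60). Col1a2 (0.263 against 0.0479 CPM) and Lum (0.0202 against 0) were higher too, and Col1a1 was lower (0.295 against 0.620 CPM). The part of the markers in the members' differences was not tested. Fewer cells that express a gene and less of its RNA per cell cannot be told apart in such bulk samples.

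Without WT b, 3 members passed as lower and 4 did not pass. Hmgb2 (log2 fold change -0.43, SE 0.05, adjusted p = 1.39e-06 with edgeR), Hmgn1 (-0.51, SE 0.06, adjusted p = 2.54e-06) and Hmgb1 (-0.33, SE 0.06, adjusted p = 2.91e-04) passed as lower. These 3 of 7 members are read against 22% of all genes called lower and 42.5% called in either direction in that fit. The sizes of these changes were 0.743-fold, 0.703-fold and 0.795-fold. Scaled by summed counts alone, Hmgb2 had 708 and 691 CPM in WT a and c and 573 to 593 in the full deletion. Hmgn1 then had 396 and 434 against 306 to 347, and Hmgb1 87.5 and 79.6 against 73.7 to 74.8. These differences were smaller but in the same direction, so their size depends on the scaling. With all samples, that scaling gave a median log2 fold change of 0.32 over all genes. The values that follow use TMM. Hmgb3 had 31.3 and 32.8 CPM in WT a and c and at least 29.0 in the full deletion, whose highest sample lay between them (log2 fold change -0.05, SE 0.08, adjusted p = 0.617 with edgeR), and Hmgn5 had 40.4 and 42.1 CPM against 39.9 to 44.3 in the full deletion (0.03, SE 0.07, adjusted p = 0.766 with edgeR). The lower values of these 2 X-linked genes with all samples in the fit thus rested on WT b, which had 74.6 CPM of Hmgb3 and 171 CPM of Hmgn5. Hmgn2 had 17.4, 13.4 and 15.5 CPM in WT and up to 14.8 in the full deletion, within the WT range (-0.19, SE 0.10, adjusted p = 0.139 without WT b). Hmgn3 had -0.29 without WT b (SE 0.30, adjusted p = 0.468 with edgeR), against -0.61 with all samples. Among the full-deletion replicates the coefficient of variation ran from 0.323% for Hmgb1 to 14.3% for Hmgn3, with 2.50% for Hmgb2 and 7.04% for Hmgn1.

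A pair of Hmgb1 copies had counts of their own, Hmgb1-ps7 at 0.962 to 1.54 times the count of Hmgb1 in 14 samples and Hmgb1-rs17 at 0.261 to 0.453 times. The count of Hmgb1-ps7 and Hmgb1-rs17 together was 1.22 to 1.95 times that of Hmgb1 in 14 samples and 3.03 times in WT b of the full-deletion experiment. In the full deletion Hmgb1-rs17 was lower with all samples (log2 fold change -1.37, SE 0.31, adjusted p = 0.0425 with edgeR), and Hmgb1-ps7 had -0.84 (SE 0.31, adjusted p = 0.0968). Without WT b both passed as lower, Hmgb1-rs17 with -0.89 (SE 0.09, adjusted p = 3.03e-07 with edgeR) and Hmgb1-ps7 with -0.35 (SE 0.06, adjusted p = 1.31e-04). Between batches b and a, each copy had a log2 difference of 0.17 (adjusted p = 0.171 and 0.181), against 0.53 for Hmgb1. With the copies added, Hmgb1 had -0.78 in the full deletion (adjusted p = 0.0742 with edgeR, against -0.46 alone) and 0.31 between batches (adjusted p = 0.0153). How many of these reads came from Hmgb1 transcripts was not tested.

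The KO and the full deletion were set against each other in a joint fit of both experiments. No member differed, with 0.307% of all genes called. The difference of the log2 fold changes, KO minus full deletion, was largest among the members for Hmgn5 (1.11, SE 0.76, adjusted p = 0.418 with edgeR, and 0.12, adjusted p = 0.873, without WT b of the full-deletion experiment) and had its lowest p for Hmgn1 (0.97, SE 0.32, adjusted p = 0.223 with edgeR). Without that library Hmgn1 passed (0.68, adjusted p = 0.0334 with edgeR), where 4.87% of all genes were called and 3.66% as higher, its log2 fold change in the separate fits being 0.13 in KO and -0.51 in the full deletion. For Hmgb1 the difference was 0.31 (SE 0.19, 95% interval -0.07 to 0.69), and 0.72 with its copies added (adjusted p = 0.271 with edgeR). Under the stricter rule of the study (adjusted p under 0.01 and at least 2-fold) no member was called in any comparison, where 0.0216% of all genes were called in KO, 0.0144% and 0.0647% in the Hmga1 and Hmga2 add-backs and 0.0647% in the KO-derived lines against WT, 0% and 0.00719% in the add-backs against KO, 2.34% between batches, 0.0687% in the full deletion and 0.0951% in the difference of both effects.

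Other genes of these pathways were examined as a list of 28, of which 22 were tested in each experiment. It holds other HMG-box genes, partners of Hmgb1 and Hmgb2 such as Set and Anp32a, and receptors of released Hmgb1 such as Tlr2. In the lines of the KO experiment 0 of 22 passed in each comparison between lines. Between batches 10 passed, 7 higher in b and 3 lower, where 35.6% of all genes were called and 18.6% as higher, with a median over the list of 0.10 (all genes -0.03). The largest differences were those of Tlr2 (-1.04, SE 0.29, adjusted p = 0.0256 with edgeR), Cic, a transcriptional repressor (-0.55, SE 0.10, adjusted p = 0.00626), and Bbx, an HMG-box protein (0.49, SE 0.09, adjusted p = 0.00531). In the full deletion Bbx was called, as lower (-0.74, SE 0.18, adjusted p = 0.0496 with edgeR), and the list median was -0.01 against 0.04 over all genes. Without WT b 16 of the list passed, 11 lower and 5 higher, where 42.5% of all genes passed, 22% lower and 20.5% higher. The largest changes among them were those of Tlr2 (1.96, SE 0.55, adjusted p = 0.00794 with edgeR), Cxcr4, a chemokine receptor (1.13, SE 0.35, adjusted p = 0.0153), and Bbx (-0.50, SE 0.06). Smaller changes included those of Ssrp1, a subunit of the histone chaperone FACT (-0.42, SE 0.05), and Set, which forms a complex with Hmgb2 (-0.35, SE 0.05).

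The pattern of each member over the 15 samples was matched to the 9680 genes that averaged 100 counts or more in both experiments, by the root-mean-square difference of centred log2 CPM. Hmgb2 was most like Anp32e (0.07) and Rwdd1 (0.08), Hmgb1 most like Ppp4r3a (0.07) and Msh3 (0.07), Hmgn1 most like Ppil4 (0.09) and Hspa4 (0.10), and Hmgn2 most like E2f3 (0.08) and Nup153 (0.08). The variation of these 4 members about their own means was 0.47, 0.30, 0.45 and 0.23 on the same scale. Hmgn5 varied most (0.58), and its nearest genes were Ebag9 (0.22) and Acot13 (0.23). Hmgb3, with a variation of 0.40, was most like Zbtb8os (0.15) and Calm2 (0.16). Hmgn3, with 0.37, was most like Slk (0.15) and Zfp937 (0.15). Among the members, Hmgb1 and Hmgn1 (0.21) and Hmgb2 and Hmgn1 (0.21) were the closest pairs, and Hmgn2 and Hmgn5 (0.66) the farthest. The 15 points share batches, depth and the library that stood apart, so these values describe the samples and are given without a test.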

How the data were processed

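Per the labels and the study's methods, the authors trimmed 3 bases, aligned reads to mm9 with QuasR and Bowtie (up to 100 placements, 1 kept at random) and counted reads on the gene's strand over UCSC known genes. The submitters' notes also name bcl2fastq 2.17. The deposited values are raw counts per gene, with exon length. All count columns were mapped to samples. For genes that averaged 10 counts or more, edgeR 4.0.16 was used (R 4.3.3, TMM, quasi-likelihood test, Benjamini-Hochberg adjustment over all genes tested, threshold 0.05), and the study's rule (adjusted p under 0.01 and at least 2-fold) was counted beside it. The fit of the KO experiment used 9 samples with batch as a term, the pairing of letters coming from the study's methods (same-letter samples correlated at 0.319 to 0.758 in their deviations). The full-deletion fit used 6 samples with no block. Intervals are the estimate and its SE under a normal distribution. The tests were checked on simulated data. Named were the 7 members, Hmga1, up to 3 listed genes that passed with the largest change per comparison, and the 2 nearest genes by pattern. Hmgb1-ps7, Hmgb1-rs17, Hmga2, the further listed genes and the marker genes were named after their values were seen. Members and lists were chosen with earlier results of these data known. Stretches of 47 bases of the longest GENCODE vM1 coding transcript were searched for exact matches in NCBIM37 on both strands, allowing 0 mismatches, fewer than the alignment allowed. RPKM used the exon length of the table, which for Hmgn1 is 1200 bases against 2174 in the GENCODE transcript. Where replicates were compared, p-values measure the spread between cultures of 1 clone. Alternatives were DESeq2 1.42.0, limma 3.58.1, other scalings and filters, and each sample left out. The sequence of 1 exon junction is not reported here.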

Additional observations from a re-analysis of the deposited data

How the results depend on the processing

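Of 1057 values of a member in a comparison under an alternative, 964 kept both direction and side of the threshold, 74 changed sign, 15 newly passed and 4 no longer did. With no replicate block in the KO experiment the log2 fold change against WT became -0.15 for Hmgb3, -0.090 for Hmgn1 and -0.33 for Hmgn5 in KO, -0.39 for Hmgn5 in the Hmga1 add-back, -0.16 for Hmgn5 in the Hmga2 add-back, -0.17 for Hmgn1 and -0.29 for Hmgn5 in the KO-derived lines, and 0.0025 for Hmgb2 in the Hmga2 add-back against KO. No member passed either way in these comparisons, and the cause was not tested. Letters of the full-deletion experiment share only a letter (same-letter correlations -0.0546 to 0.0703), and the replicate block there called 0 listed genes and 0 members. Scaling by summed counts gave 0.0072 for Hmgn3 in KO, 0.022 for Hmgn1 in the Hmga1 add-back, 0.023 for Hmgb2 in the Hmga2 add-back against KO and 0.17 for Hmgn2 in the full deletion. Hmgn3 in KO was 0.010 with no filter and 0.010 with the compared groups only. Hmgn1 in the KO-derived lines was -0.0062 with DESeq2 size factors and -0.0062 with DESeq2's Wald test. The Wald test called 1, 2, 1 and 2 listed genes in KO, both add-backs and the KO-derived lines against WT (2 in the last with no filter). Of all 13912 genes it called 199, 201, 328 and 531 in these, and 306 of 20907 were called in the last with no filter. In the full deletion the Wald test called 3 members (Hmgb1 -0.50, Hmgb2 -1.07, Hmgn1 -0.86) and 10 listed genes, and 1 member (Hmgn1 -0.82) passed with no filter. Of all 13098 genes the Wald test called 3232 there, 1836 of them lower, and 1345 of 17650 were called with no filter, 702 lower. The listed gene was not called with DESeq2 size factors, a mean count of at least 50, limma-trend or the study's rule (0 each), and the study's rule called 0 members between batches. With 36-base stretches the shares elsewhere were 76.3, 37.3, 83.4, 38.1, 91.6, 0.443 and 32.4% from Hmgb1 to Hmgn5, and with summed-count scaling the full-deletion RPKM were 24.7, 216, 19.8, 272, 12.6 and 24.5 for Hmgb1, Hmgb2, Hmgb3, Hmgn1, Hmgn2 and Hmgn5. With each sample left out in turn, values of members that changed a call or sign ranged as follows. In KO against WT the log2 value ran for Hmgb2 from -0.25 to 0.046, Hmgb3 from -0.35 to 0.47, Hmgn1 from -0.077 to 0.33, Hmgn3 from -0.26 to 0.24 and Hmgn5 from -0.52 to 0.82. In the Hmga1 add-back against WT the log2 value ran for Hmgb3 from -0.49 to 0.13, Hmgn1 from -0.17 to 0.13, Hmgn3 from -0.062 to 0.48 and Hmgn5 from -0.59 to 0.75. In the Hmga2 add-back against WT the log2 value ran for Hmgb3 from -0.60 to 0.012, Hmgn1 from -0.20 to 0.0055, Hmgn2 from -0.25 to 0.058 and Hmgn5 from -0.34 to 0.99. In the Hmga1 add-back against KO the log2 value ran for Hmgb2 from -0.21 to 0.086, Hmgb3 from -0.63 to 0.17, Hmgn1 from -0.35 to 0.052, Hmgn2 from -0.24 to 0.053, Hmgn3 from -0.066 to 0.46 and Hmgn5 from -0.46 to 0.24. In the Hmga2 add-back against KO the log2 value ran for Hmgb2 from -0.17 to 0.13, Hmgb3 from -0.77 to 0.053, Hmgn2 from -0.044 to 0.26 and Hmgn5 from -0.033 to 0.40. In the KO-derived lines the log2 value ran for Hmgb3 from -0.43 to 0.18, Hmgn1 from -0.066 to 0.069 and Hmgn5 from -0.48 to 0.85. Between batches the log2 value ran for Hmgb3 from -0.26 to 0.10, Hmgn2 from 0.43 to 0.58 and Hmgn5 from -0.34 to 0.17. In the full deletion the log2 value ran for Hmgb1 from -0.55 to -0.33, Hmgb2 from -1.25 to -0.43, Hmgn1 from -0.98 to -0.51 and Hmgn5 from -1.34 to 0.030. In the difference of both effects the log2 value ran for Hmgn1 from 0.68 to 1.17 and Hmgn2 from -0.26 to 0.057. Leaving out a sample called 0 to 1 members and 0 to 1 listed genes in KO and in the Hmga1 add-back, 0 to 1 and 0 to 3 in the Hmga2 add-back, 0 to 1 and 0 to 2 in the KO-derived lines, 0 to 3 and 0 to 16 in the full deletion, and 0 to 1 members in the difference of both effects, the highest count each time without a WT b. Without WT b of the KO experiment, 736, 806, 1312 and 1567 of 14011 genes were called against WT, in the same order. Without that of the full-deletion experiment, 5592 of 13163 were called in the full deletion and 667 of 13707 in the difference of both effects. With 2 or 3 samples a group from 1 clone, and matches searched without mismatches, these counts bound neither effects of clones nor of copies.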
